A study of Mus musculus with 18 samples.

Results

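The cyclin-dependent kinase inhibitor genes Cdkn2a, Cdkn2b and Cdkn1a were described through the histone peaks in their windows in mouse embryonic fibroblasts with and without Cre. Every peak of the 8 deposited histone peak lists was taken that overlapped 1 of 2 windows in build NCBIM37, chromosome 4 from 88890000 to 88980000 for Cdkn2a and Cdkn2b and chromosome 17 from 29200000 to 29260000 for Cdkn1a. This gave 77 peaks of 225177 in all lists, 47 in the first window and 30 in the second. The fibroblasts came from a mixed B6;129 background and carried a conditional knockout allele of Rb, the retinoblastoma gene. Cells were infected with Adeno-Cre, which deletes the allele, or, as control, with Adeno-GFP, so that both groups had the conditional allele and an adenovirus, and neither had received the 4F construct. Cells were expanded for at most 3 passages, and chromatin was immunoprecipitated for pan-acetylated histone H3 (H3Ac), H3K4me3, H3K27me3 and H3K9me3, with 1 library for each mark in each condition. The labels number all 8 libraries as biological replicate 3. With 1 library each, differences between GFP and Cre could not be set against replicates and were not tested. The RNA, Rb and input libraries were not analysed here, so that neither the deletion of Rb nor the expression of the 3 genes was checked. The labels do not tell whether both cultures derived from the same embryos.

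Cdkn2a encodes p16Ink4a, which binds and inhibits the cyclin D-dependent kinases Cdk4 and Cdk6, and, from another first exon and reading frame, p19Arf, which stabilises p53 by inhibiting Mdm2. Cdkn2b encodes p15Ink4b, a close relative of p16Ink4a that inhibits the same kinases. Cdkn1a encodes p21Cip1, a p53 target that inhibits cyclin-Cdk complexes. Inhibited cyclin D kinases leave the Rb protein unphosphorylated and bound to E2F factors, which restrains entry into the cell cycle. In cultured fibroblasts the locus of Cdkn2a and Cdkn2b is known as a Polycomb target that is silenced in young cells and becomes active with passage. H3Ac and H3K4me3 are found at active promoters, H3K27me3 is deposited by Polycomb complexes, and H3K9me3 is found in heterochromatin.

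The promoters of the 3 genes are shown because the active marks described below lie in their windows. RefSeq gives 5 start sites for them on build GRCm38.p6, and the 250 bases before each start are printed 5′ to 3′ on the gene's strand. In order along chromosome 4, toward higher coordinates, come the downstream start of Cdkn2a (p16Ink4a), its upstream start (p19Arf) and the start of Cdkn2b, all on the minus strand. Cdkn1a has both of its starts on the plus strand of chromosome 17. Since the peaks are on another build, no peak was joined to a start by position. Capitals mark matches, on either strand, to the E2F words TTTCCCGC, TTTGGCGC, TTTCGCGC and TTTGCCGC, to the GC box GGGCGG, the TATA sequence TATAA, the E-box CACGTG and the cyclic AMP response element TGACGTCA, and to the p53 half-site. No matches of different motifs overlapped in these sequences.
Cdkn2a, downstream start: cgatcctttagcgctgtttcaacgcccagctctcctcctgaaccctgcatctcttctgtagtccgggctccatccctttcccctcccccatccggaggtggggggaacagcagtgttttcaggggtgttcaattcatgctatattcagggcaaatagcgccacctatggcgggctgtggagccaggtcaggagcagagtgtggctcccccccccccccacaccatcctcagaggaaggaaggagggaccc
Cdkn2a, upstream start: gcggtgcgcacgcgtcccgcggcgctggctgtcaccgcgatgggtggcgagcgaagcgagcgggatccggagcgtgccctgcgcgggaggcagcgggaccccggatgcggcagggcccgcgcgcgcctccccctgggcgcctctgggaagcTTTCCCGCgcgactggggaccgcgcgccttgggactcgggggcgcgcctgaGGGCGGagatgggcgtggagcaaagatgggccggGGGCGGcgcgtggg
Cdkn2b: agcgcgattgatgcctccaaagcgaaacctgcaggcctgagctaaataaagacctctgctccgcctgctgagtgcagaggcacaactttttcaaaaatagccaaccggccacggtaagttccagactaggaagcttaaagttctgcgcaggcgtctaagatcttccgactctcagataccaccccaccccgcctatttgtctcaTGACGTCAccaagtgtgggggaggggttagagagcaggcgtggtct
Cdkn1a, upstream start: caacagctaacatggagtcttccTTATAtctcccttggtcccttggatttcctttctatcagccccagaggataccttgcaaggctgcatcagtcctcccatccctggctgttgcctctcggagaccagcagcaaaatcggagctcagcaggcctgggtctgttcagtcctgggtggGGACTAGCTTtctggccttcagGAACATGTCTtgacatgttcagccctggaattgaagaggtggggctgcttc
Cdkn1a, downstream start: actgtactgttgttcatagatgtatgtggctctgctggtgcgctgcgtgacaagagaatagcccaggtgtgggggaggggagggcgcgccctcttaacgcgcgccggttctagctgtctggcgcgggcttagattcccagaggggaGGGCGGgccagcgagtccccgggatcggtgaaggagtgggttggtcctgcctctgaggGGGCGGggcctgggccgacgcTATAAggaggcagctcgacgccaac

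The 5 sequences differed in CpG content, to which H3K4me3 is known to be linked. The upstream Cdkn2a promoter held 40 CpG, and 1.31% of the 32851 promoters of the table held as many. The downstream Cdkn1a promoter held 19, that of Cdkn2b 12, the downstream Cdkn2a promoter 7 and the upstream Cdkn1a promoter 2, against a median of 6 over the table. An E2F word, TTTCCCGC, was found once, in the upstream Cdkn2a promoter. That word occurred in 0.895% of all promoters, and any of the 4 E2F words in 1.86%. The upstream Cdkn1a promoter held 2 matches to the p53 half-site, which was present in 7.13% of promoters, and the other 4 sequences held none. GGGCGG occurred 2 times each in the upstream Cdkn2a and the downstream Cdkn1a promoter, and in 32.7% of all promoters. TGACGTCA occurred once, in Cdkn2b, and in 1.55% of all promoters. TATAA occurred once in each Cdkn1a promoter and in 22.8% of all promoters, and CACGTG in none of the 5 and in 6.02% of all. A match to these letters is a description and not a site of binding.

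The window of Cdkn2a and Cdkn2b was densely covered by active marks in both conditions. H3Ac peaks covered 26.6 kb of its 90 kb in GFP and 32.9 kb in Cre cells, and H3K4me3 peaks 18.3 kb and 20.9 kb. Of 27454 windows of that length tiled along the autosomes, 1.05% held as much H3Ac in GFP and 0.219% in Cre, and 0.175% and 0.117% as much H3K4me3. H3K27me3 covered 10.97 kb in GFP and 5.72 kb in Cre cells. No H3K9me3 peak was listed there in either condition. The Cre to GFP ratio of covered length was 1.24 for H3Ac, 1.14 for H3K4me3 and 0.522 for H3K27me3. A covered length at least 1.5 times lower in Cre was found in 26.2% of the 7164 tiles with at least 1 kb of H3K27me3 in either library. The window's ratio met the same level.

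**Figure D1:**
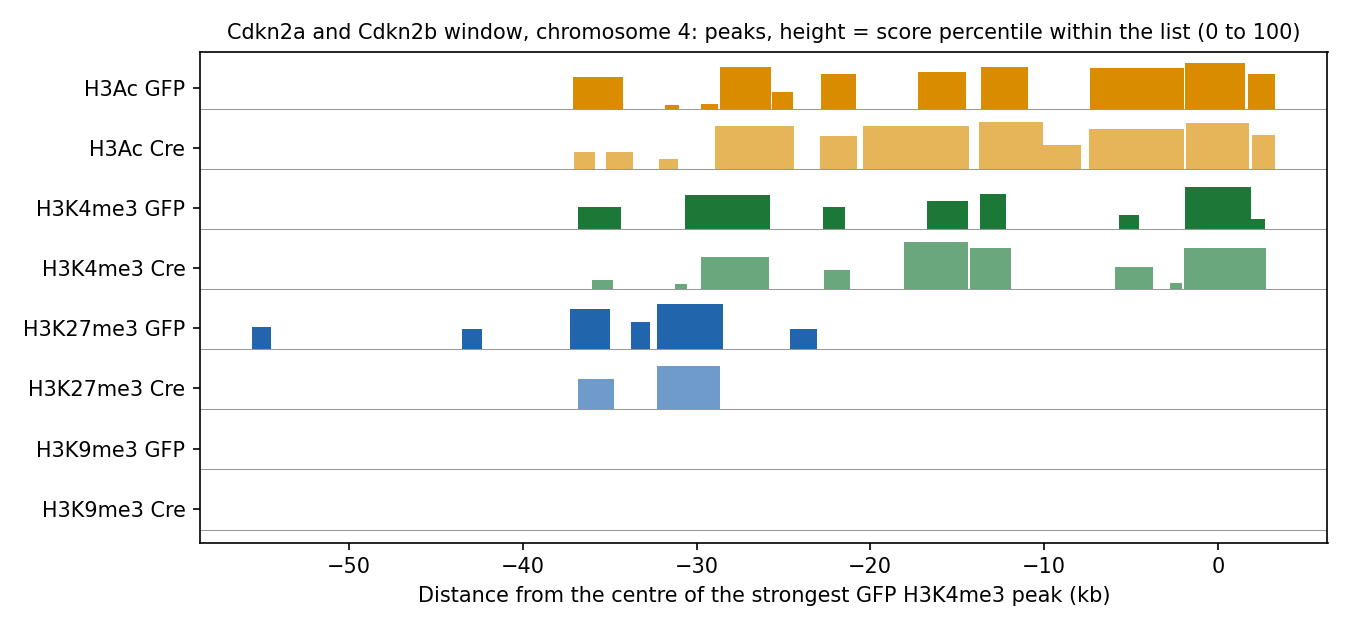
Histone peaks in the window of Cdkn2a and Cdkn2b, 1 row per mark and condition. The x axis is the distance in kb from the centre of the strongest GFP H3K4me3 peak, boxes span the peaks, and box height is the score percentile within the list, from 0 to 100. The 6 GFP H3K27me3 peaks lie on the left, at lower coordinates, and 2 of them have a Cre counterpart.

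Peaks were ranked by the authors' score within each list, rank 1 being the highest. Many H3Ac and H3K4me3 peaks share a score of exactly 3100, 4367 in the GFP and 5743 in the Cre H3K4me3 list, and few lie above it, up to 3233. Ranks within a list are given for the scores as deposited. For comparison between the conditions, regions with a peak in both lists of a mark were ranked again over those regions only, with scores from 3100 upward tied. The percentile is the share of such regions ranked lower plus 0.5 of the share tied. Tied regions made up 23.4% of shared H3K4me3 regions in GFP and 30.7% in Cre, so that their percentile was 88.3 and 84.7, and 9.37% and 7.07% of shared H3Ac regions. A region was called moved where its percentile differed by at least 10 points.

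At the higher-coordinate end of the window lay an H3K4me3 and an H3Ac peak with a score of 3100 in both conditions. The H3K4me3 peak spanned 3804 bases, from 88953080 to 88956883, in GFP and 4716 bases, from 88953016 to 88957731, in Cre cells, both with a score of 3100. By width it ranked 1105 of 23808 in GFP and 647 of 22621 in Cre. The H3Ac peak there spanned 3432 and 3670 bases, also with scores of 3100. Its percentile over shared regions, 95.3 in GFP and 96.5 in Cre, was that of all tied regions and could not show a difference. After it came a weaker H3Ac peak, with a score of 685 in GFP, rank 13140, and 603 in Cre, rank 12881, and a GFP H3K4me3 peak of 824 bases with a score of 91.6 that lay inside the wide Cre peak. The wide H3Ac peak beside it, from 88947623 to 88953059 in GFP and from 88947580 to 88953057 in Cre, scored 1575 and 1547, ranked 7236 and 6560, and was nearly the same in width, 5437 and 5478 bases.

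In the middle of the window lay a pair of neighbouring H3K4me3 peaks that stood higher in the Cre list. The first was 2321 bases wide in GFP, from 88938268 to 88940588, scoring 824 at rank 10406. In Cre it was 3630 bases wide, from 88936949 to 88940578, scoring 3134, among the 5955 peaks of that list with scores of 3100 or more. Over the 19333 shared H3K4me3 regions its percentile was 48.3 in GFP and 84.7 in Cre, a difference of 36.3 points, and 70 of the regions, 0.362%, moved up as far. With scores taken as deposited, which puts 3134 above the 5743 peaks at 3100, the difference was 50.9 points. The second was 1529 bases wide in GFP, from 88941278 to 88942806, scoring 2000.07 at rank 6708, and 2331 bases wide in Cre, from 88940748 to 88943078, scoring 3100. Its percentile was 66.0 and 84.7, a difference of 18.6. H3Ac over the same stretch showed the same direction. The peak from 88937752 to 88940472 scored 868 and ranked 11388 in GFP, and its Cre counterpart, from 88934537 to 88940635, scored 2215, ranked 4234 and was 6099 instead of 2721 bases wide. The peak from 88941382 to 88944054 scored 1879 in GFP, and its Cre counterpart, from 88941223 to 88944912, scored 3105. These H3Ac regions differed by 20.3 and 14.1 percentile points.

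At the lower-coordinate end the order was the opposite for 3 marks at once. H3K4me3 from 88918150 to 88920627 scored 382 in GFP, rank 13382, and the Cre peak, from 88918948 to 88920161, scored 103, rank 19318. Its percentile was 34.8 in GFP and 6.58 in Cre, a difference of -28.2, and 0.512% of shared H3K4me3 regions moved down as far. H3Ac there was 1 peak of 2870 bases with a score of 447 in GFP and 2 peaks of 1173 and 1557 bases with scores of 119 and 122 in Cre, a difference of -30.9 percentile points. H3K27me3 there scored 469 over 2324 bases in GFP, rank 5626 of 36059, and 195 over 2101 bases in Cre, rank 13585 of 36381, a difference of -31.1 points, and 6.93% of shared H3K27me3 regions moved down as far. It was 1 of the 2 shared H3K27me3 regions of the window, and 27% of all such regions were called moved down and 26.4% moved up.

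Between these lay 2 H3K4me3 regions that differed by less than 10 points. The peak from 88924309 to 88929224 in GFP, 4916 bases wide, scored 1760, rank 7208, and in Cre cells was listed as 2 peaks, of 733 bases with a score of 64.4 and of 3915 bases with a score of 2284, rank 7485. The difference was -2.14 percentile points. A small peak from 88932233 to 88933523 scored 345 in GFP and 361 in Cre, a difference of -6.25. H3Ac over these 2 regions differed by 4.48 and -0.58 points. Over the first, GFP cells had an H3Ac peak of 2972 bases with a score of 1926, rank 5901 of 48778, between weak ones with scores of 56.5 and 121, and Cre cells had 1 peak of 4552 bases with a score of 2187, rank 4327 of 42660. Over the second, H3Ac scored 636 in GFP, rank 13731, and 525 in Cre, rank 13836, with widths of 2003 and 2120 bases. A weak H3Ac pair before the first scored 52.8 in GFP and 75.7 in Cre, a difference of 7.54 points. Nearer the higher-coordinate end, a weak H3K4me3 peak from 88949287 to 88950434 in GFP scored 127 and its Cre counterpart, from 88949079 to 88951246, scored 591, a difference of 19.99 points. In all, 3 of 7 shared H3K4me3 regions of the window were called moved up in Cre, where 13.8% of all shared H3K4me3 regions were, and 1 moved down, against 8.11%. For H3Ac, 2 of 8 moved up and 1 down, against 19.8% and 18.7%.

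**Figure D2:**
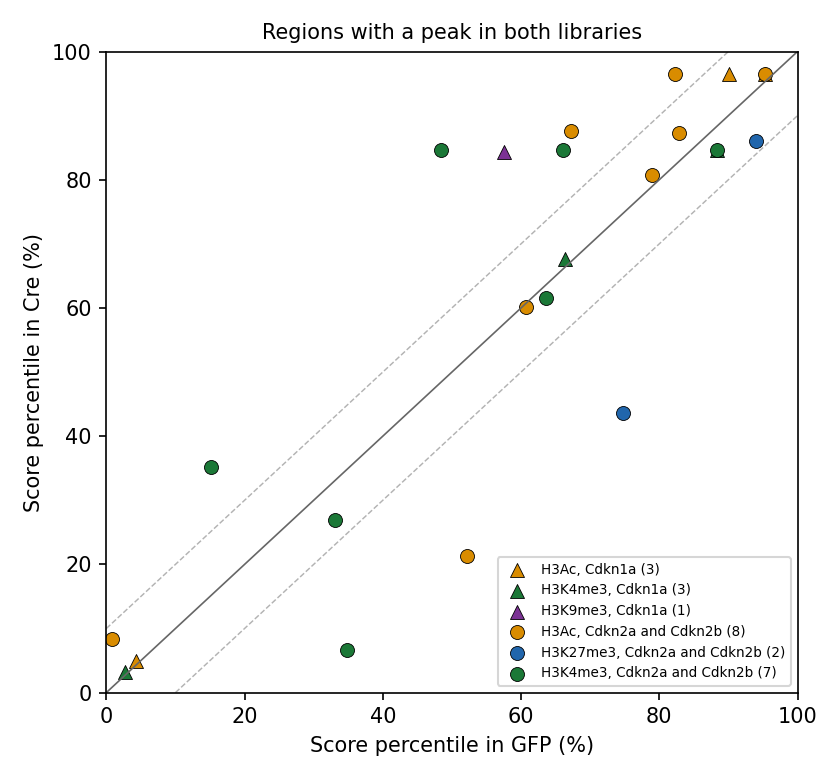
Score percentile in GFP (x axis, %) and Cre (y axis, %) of the 24 regions of both windows with a peak in both lists of a mark, ranked over shared regions with scores from 3100 tied. Circles are Cdkn2a and Cdkn2b, triangles Cdkn1a, the solid line marks equal percentiles and dashed lines a difference of 10 points. The H3K4me3 region at 48.3 in GFP and 84.7 in Cre lies farthest above the line, and 1 region each of H3Ac, H3K4me3 and H3K27me3 lies far below it.

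The Polycomb mark lay on the lower-coordinate side of the window, apart from the active peaks with scores of 3100 or more. The main H3K27me3 peak had almost the same borders in both conditions, from 88922729 to 88926507 in GFP and from 88922730 to 88926351 in Cre. It scored 1283 in GFP, rank 1324 and so within the top 3.67% of the list, and 880 in Cre, rank 2999 and within the top 8.24%. Over shared regions the difference was -7.88 points, and 30.8% of regions moved down as far. The other 4 GFP H3K27me3 peaks, of 1068 to 1535 bases with scores of 100.3 to 146, had no Cre counterpart. Over the whole list 30.5% of GFP H3K27me3 peaks had none, and 49.1% of those with a score of at most 146 had none. That limit was taken from the strongest of these 4 peaks. Peaks within it score down to 50.01, so that 49.1% is not a share at like scores. No Cre H3K27me3 peak of the window was without a GFP counterpart, where 33.6% of the Cre list were.

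Active and Polycomb marks overlapped within the window of Cdkn2a and Cdkn2b in both conditions. H3K27me3 overlapped 2 of 8 GFP and 3 of 9 Cre H3K4me3 peaks, against 12.3% and 13.1% of the whole lists. The overlap was 4.07 kb in GFP and 3.05 kb in Cre. It lay at the lower-coordinate end and over the lower-coordinate part of the wide H3K4me3 peak that follows. In Cre it also took in the whole of an H3K4me3 peak of 733 bases. H3K27me3 also overlapped 5 of 11 GFP and 4 of 11 Cre H3Ac peaks, against 2.35% and 4.28% of the lists. These are bulk cells, and such an overlap can come from different cells. All 8 GFP and 9 Cre H3K4me3 peaks overlapped H3Ac, as did 80.1% and 85.0% of the lists.

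Active peaks of this window found in 1 condition only were counted beside the share over each list, and the Cre counts were near it. All 11 GFP H3Ac and all 8 GFP H3K4me3 peaks had a Cre counterpart, where 26.6% and 10.7% of the lists had none. In Cre, 1 of 11 H3Ac peaks, from 88944951 to 88947128 with a score of 206, had no GFP counterpart, against 15.4% of the list. The same held for 1 of 9 Cre H3K4me3 peaks, of 658 bases with a score of 67.2, against 12.6%. Both filled gaps beside peaks found in both conditions. With an overlap of at least 50% of the peak required, 1 GFP H3Ac, 1 GFP H3K4me3, 2 Cre H3Ac and 2 Cre H3K4me3 peaks lacked a counterpart. The shares of the lists at that level were not computed, and those above are for an overlap of at least 1 base.

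Cdkn1a had a wide H3K4me3 domain with a score of 3100 in both conditions. It spanned 7040 bases, from 29227306 to 29234345, in GFP and 11261 bases, from 29227087 to 29238347, in Cre cells, each with a score of 3100. By width it ranked 79 of 23808 in GFP and 10 of 22621 in Cre. The Cre peak also overlapped 2 weaker GFP peaks that follow the main one, of 797 bases with a score of 101 and of 1890 bases with a score of 194. H3Ac covered the domain with 3 peaks in GFP, with scores of 3100, 267 and 2693 and widths of 4611, 838 and 2050 bases, and with 2 peaks in Cre, both at 3100, of 5968 and 3695 bases. Another Cre H3Ac peak, from 29235708 to 29237199 with a score of 122, had no GFP counterpart. In the window, 2 of 6 Cre H3Ac peaks had none, against 15.4% of the list.

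A second active region lay at lower coordinates, before the Cdkn1a domain. Its H3K4me3 peak was 1580 bases wide in GFP, from 29214687 to 29216266, scoring 2027 at rank 6634. In Cre it was 1601 bases wide, from 29214709 to 29216309, scoring 2914 at rank 6284. The percentile over shared regions was 66.4 and 67.7. A small H3K4me3 peak before it scored 61.4 in GFP and 73.95 in Cre. H3Ac there comprised 2 GFP peaks, of 3200 and 1857 bases with scores of 2975 and 875, ranks 3410 and 11344, and 1 Cre peak of 5867 bases with a score of 3100. None of the 3 shared H3K4me3 regions of the Cdkn1a window was called moved, where 13.8% of all such regions were up and 8.11% down, nor any of the 3 shared H3Ac regions, where 19.8% and 18.7% were. The domain itself was at 3100 in both lists for both marks, so that its rank could not show a difference. The other 4 regions differed by 0.43 to 6.44 points. The remaining H3Ac peaks were weak, 1 pair at the window's lower edge, with scores of 67.9 in GFP and 64.5 in Cre, and a Cre peak of 925 bases without a GFP counterpart, with a score of 64.6.

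**Figure D3:**
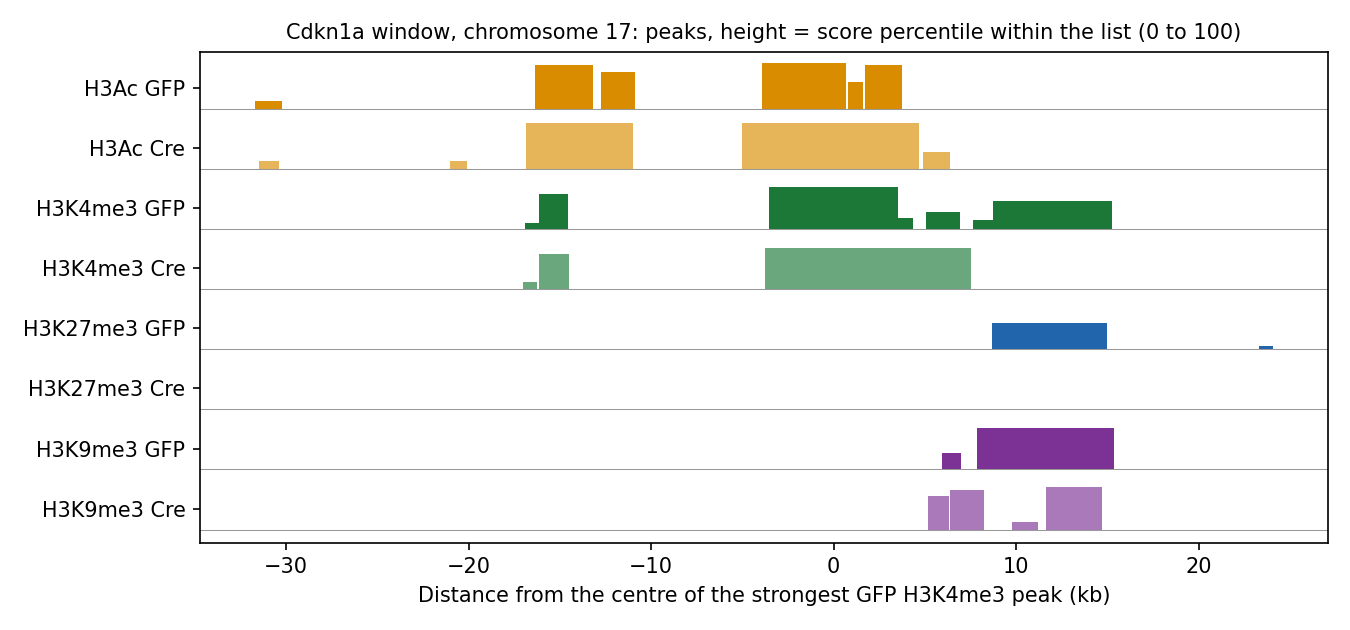
Histone peaks in the window of Cdkn1a, 1 row per mark and condition. The x axis is the distance in kb from the centre of the strongest GFP H3K4me3 peak, boxes span the peaks, and box height is the score percentile within the list, from 0 to 100. Right of the central domain the GFP rows of H3K4me3, H3K27me3 and H3K9me3 each hold a wide peak, and of these only H3K9me3 has Cre peaks at the same place.

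The GFP and Cre lists differed beyond the active domain of Cdkn1a, at higher coordinates. In GFP cells a stretch there carried 3 marks with nearly the same borders. The H3K4me3 peak, of 6517 bases from 29239569 to 29246085, scored 903 at rank 10044. The H3K27me3 peak, of 6318 bases from 29239512 to 29245829, scored 139 at rank 16897. The H3K9me3 peak, of 7527 bases from 29238692 to 29246218, scored 179 at rank 1337 of 10885. No H3Ac peak overlapped it in either condition. All 3 peaks were wide for their lists, with width ranks of 120 for H3K4me3, 1041 for H3K27me3 and 105 for H3K9me3.

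In Cre cells neither H3K4me3 nor H3K27me3 was listed on that stretch. The GFP H3K4me3 peak was 1 of 5 without a Cre counterpart among the 10044 GFP peaks with its score or more, 0.0498%, and 1 of 2 among the 121 at least as wide, 1.65%. When peaks within 1000 bases were merged, it was joined to the GFP domain, which overlapped the Cre one, and 0 GFP H3K4me3 peaks of the window lacked a counterpart. The neighbouring GFP H3K4me3 peak, from 29238488 to 29239565 with a score of 81.6, also had no Cre counterpart, and the wide Cre domain ended just before it, at 29238347. The GFP H3K27me3 peak was 1 of 3 without a Cre counterpart among the 1041 at least as wide, 0.288%. Its score of 139 was near the median of the list, 128. Of GFP H3K27me3 peaks with scores of at most 146, 49.1% had no Cre counterpart. That limit came from a peak of the windows without a counterpart, so that 49.1% is not a share at like scores. A further GFP H3K27me3 peak of the window, of 749 bases with a score of 50.8, had no Cre counterpart. The Cre list held no H3K27me3 peak in the window. A covered length at least 1.5 times lower in Cre, or none, was found in 27.2% of the tiles of 60 kb with at least 1 kb in either library.

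H3K9me3 was listed on the stretch in both conditions. GFP cells had 2 peaks in the window, covering 8.59 kb, and Cre cells 4, covering 7.50 kb, a ratio of 0.873. Of the 41185 tiles of 60 kb, 0.534% held as much H3K9me3 in GFP and 0.260% in Cre. Among the 3721 tiles with at least 1 kb in either library, 85.6% had at least 1.5 times less in Cre. The 4 Cre peaks spanned 1134, 1881, 1414 and 3070 bases between 29235991 and 29245534, with scores of 92.1, 139, 51.9 and 199. Their ranks were 1238, 642, 3615 and 378 of 3985. The smaller GFP peak, from 29236762 to 29237826, scored 64.0 at rank 7661. All 4 Cre peaks had a GFP counterpart, where 39.9% of the Cre list had none. Both GFP peaks had a Cre counterpart, where 81% of the GFP list had none, and where 37.4% of GFP peaks with a score of at least 179 and 6 of the 105 at least as wide, 5.71%, had none. Over the 1918 shared H3K9me3 regions the percentile was 57.6 in GFP and 84.3 in Cre, a difference of 26.7 points, and 33.3% of these regions were called moved up and 33.3% moved down. By width instead of score the direction turned, with a difference of -6.56 points over the whole lists. By score over the whole lists, which differ in length, the difference was 2.81 points.

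Overlap of H3K4me3 with both H3K27me3 and H3K9me3 was rare in the GFP lists, and was not counted over the Cre lists. It was found for 214 of 23808 GFP H3K4me3 peaks, 0.899%, and 212 of these overlapped no H3Ac. The wide peak beyond the Cdkn1a domain was 1 of them and the only one at least 6517 bases wide. Of the 214 peaks, 140, or 65.4%, had no Cre counterpart, against 10.7% of the whole GFP list. These shares were not matched for score. Of the 10044 GFP H3K4me3 peaks scoring at least 903, 5 had no Cre counterpart, so that most of the 140 scored less. In Cre cells, the wide H3K4me3 domain of Cdkn1a overlapped 2 H3K9me3 peaks over 2.29 kb, where 2.45% of the Cre H3K4me3 list overlapped H3K9me3. That share is over peaks of all widths, whereas the domain ranked 10 of 22621 by width. With 50% overlap required, 0 Cre H3K4me3 peaks of the window overlapped H3K9me3. The depth of the libraries is not known from the lists, and its part in these differences was not tested.

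**Figure D4:**
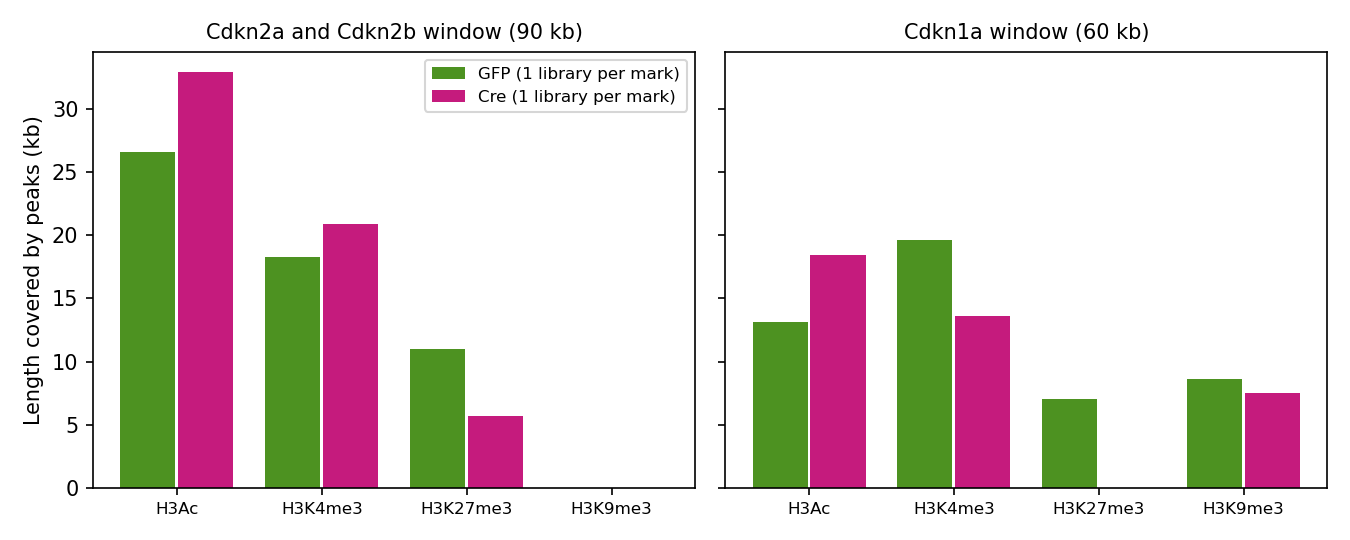
Length covered by peaks (y axis, kb) for each mark in the window of Cdkn2a and Cdkn2b (90 kb, left) and of Cdkn1a (60 kb, right), with 1 library per bar. H3Ac bars are higher in Cre in both windows, 32.9 against 26.6 kb and 18.4 against 13.2 kb, and H3K27me3 bars are higher in GFP, 10.97 against 5.72 kb and 7.07 against 0 kb.

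Set side by side, the windows shared the direction of covered length for H3Ac and H3K27me3 and not for H3K4me3. H3K27me3 length was at least 1.5 times lower in Cre in 26.2% of 90 kb and 27.2% of 60 kb tiles. These tiles held at least 1 kb of it in either library. H3Ac covered 18.4 kb of the Cdkn1a window in Cre and 13.2 kb in GFP, a ratio of 1.398, beside 1.24 for Cdkn2a and Cdkn2b. Neither ratio reached 1.5. Tiles with at least 1 kb of H3Ac in either library reached it in 10.1% of cases at 60 kb and 9.65% at 90 kb. A length at least 1.5 times lower in Cre was found in 27.3% and 27.1% of them. H3K4me3 covered 13.6 kb of the Cdkn1a window in Cre and 19.6 kb in GFP, a ratio of 0.693, beside 1.14 for Cdkn2a and Cdkn2b. It fell short of the 1.5-fold level. Of the 60 kb tiles with at least 1 kb of H3K4me3 in either library, 6.35% reached that level in that direction. Of the GFP H3K4me3 bases in the Cdkn1a window, 60.7% were also covered in Cre, and of those in the window of Cdkn2a and Cdkn2b 87.95%. Over both windows, 6 of 8 GFP H3K27me3 peaks lacked a Cre counterpart, against 30.5% of the list. These 6 scored at most 146, a limit taken from the strongest of them. Among all GFP H3K27me3 peaks within that limit, 49.1% lacked a counterpart. Without a counterpart were also 2 of 15 GFP H3K4me3 peaks, against 10.7%, and none of 17 GFP H3Ac peaks, against 26.6%. In Cre, 3 of 17 H3Ac peaks lacked a GFP counterpart, against 15.4%, and 1 of 12 H3K4me3 peaks, against 12.6%. Neither of the 2 Cre H3K27me3 peaks lacked one, against 33.6%.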

How the data were processed

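The data were 8 peak lists, 1 for each of 4 histone marks in GFP and Cre cells, with groups taken from the sample labels. The remaining 10 samples did not enter. The build, per the submitters' processing notes, was NCBIM37, and the tools included the peak caller MACS 1.4.1, bedtools 2.16.2 and BWA. Peaks were called per library, and the control library of each list is not stated. By its label, the GFP histone input carries another replicate number than the GFP mark libraries. The deposited score of each peak is the authors' and has no stated unit, so it was used only to rank peaks within a list. Peaks with at least 1 base in common were called counterparts. Positions count from 1. Tiles of 90 and 60 kb covered the 19 autosomes, and complete counts carry no sampling interval. Read depth is unknown from the lists. The members, lists and comparisons were chosen with earlier results of these data known, and every peak of the windows is accounted for. Planned counts over other cell cycle genes and over fibroblast markers were not made, since the gene tables used here are on GRCm38.p6 and coordinates were not converted. The promoter table matched all 3 genes. The overlap and rank code was tested on simulated data. Alternatives were a score of at least 100, merging within 1000 bases, equal list lengths, windows widened by 20 kb, overlap of 50% of the peak, rank by width, ranks among peaks with a counterpart and ranks without chromosomes X and Y. Tying of scores from 3100 upward was chosen after seeing the data. Python 3.11.15, NumPy 2.4.6, pandas 2.3.3 and matplotlib 3.10.9 were used.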

Additional observations from a re-analysis of the deposited data

How the results depend on the processing

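No paired analysis was possible because each mark had 1 library per condition. Values that moved by more than 1.5 times, or ranks by 10 points or more, were these, beginning with peak numbers, lengths, ranks and overlaps of marks. Merging peaks within 1000 bases gave, over Cdkn2a and Cdkn2b, 6 GFP and 4 Cre H3Ac and 5 Cre H3K4me3 peaks, and over Cdkn1a 3 GFP H3Ac, 2 GFP H3K4me3, 1 GFP H3K9me3 and 2 Cre H3K9me3 peaks. A score of at least 100 left over Cdkn1a 1 GFP H3K27me3, 1 GFP H3K9me3 and 2 Cre H3K9me3 peaks, the latter covering 4.95 kb, and 1 GFP H3K4me3 peak each overlapping H3K27me3 and H3K9me3. Windows widened by 20 kb held 10 Cre H3Ac peaks and 1 Cre H3K27me3 peak of 1.02 kb at Cdkn1a. Equal list lengths left 1 GFP H3K9me3 peak and gave a rank difference of 24.1 points at Cdkn1a, and ranks among peaks with a counterpart gave 26.7. With 50% overlap, 1 GFP H3K4me3 peak overlapped H3K27me3 in each window, 2 GFP peaks at Cdkn1a overlapped H3Ac and 0 Cre peaks overlapped H3K9me3. Numbers of peaks without a counterpart moved too. Over Cdkn2a and Cdkn2b, 50% overlap gave 1 GFP and 2 Cre peaks for H3Ac and for H3K4me3, merging 0 Cre peaks for both marks, a score of at least 100 left 0 Cre H3K4me3 peaks and equal list lengths gave 2 Cre H3Ac peaks. Over Cdkn1a, merging gave 0 GFP H3K4me3 and 1 Cre H3Ac peak, a score of at least 100 left 1 GFP H3K4me3, 1 GFP H3K27me3 and 1 Cre H3Ac peak, and 50% overlap and equal list lengths each gave 1 Cre H3K9me3 peak. These settings remove, join or add peaks, and shares of the whole lists without a counterpart were not computed at them. Rank by width turned the H3K9me3 difference at Cdkn1a to -6.56 points. Tying scores from 3100 upward moved the H3K4me3 region in the middle of the Cdkn2a and Cdkn2b window from 50.9 to 36.3 points. It moved none of the list ranks of the strongest shared regions by 10 points, but most of these are at 3100 in both lists.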
